A study of Mus musculus with 6 samples.

Results

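The TALE homeobox genes Meis1, Meis2, Pbx2, Pbx3, Pknox1, Pknox2 and Tgif1 were measured in the ventral midbrain of mouse embryos without the homeobox factor Pitx3. All probes whose platform gene symbol was 1 of these 7 were taken, which gave 9 of the 31769 gene probes on the array and 7 of 17865 named genes. Tgif1 had 3 probes and each of the others 1. Tissue came from Pitx3-/- embryos at E14.5, with 3 midbrains joined in each of 3 mutant pools. The only control was 1 reference RNA, made from 10 Pitx3+/+ midbrains and hybridised beside every mutant pool. Each pool was run on 2 two-colour arrays with the dyes exchanged, so that its ratio, log2 mutant over reference averaged over both arrays, cancels a dye bias shared by both arrays. The sources used here do not give the mutant allele or the strain, and no label says whether the pools differed in litter or day of dissection.

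TALE proteins carry a homeodomain with a 3-amino-acid loop extension. MEIS and PKNOX (also called PREP) proteins bind PBX proteins, help to hold them in the nucleus, and sit with them on DNA as partners of Hox and other homeodomain factors. TGIF1 recognises sites much like those of MEIS but recruits co-repressors, and it restrains TGF-beta and retinoid signalling. In the embryonic brain Meis2 is found in ventral forebrain and midbrain neurons, and it was identified early on as a gene induced by retinoic acid.

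Homeodomain proteins such as Pitx3 recognise a TAAT core, so windows before start sites are shown, with capitals marking each such core on either strand. The windows shown are those of the 3 members with only 1 window among the RefSeq windows used here. They are the 250 bases before the start in assembly GRCm38.p6, each read 5′ to 3′ on the gene's own strand. The Meis2 window is chr2:116064620-116064869 on the minus strand, that of Meis1 is chr11:19018970-19019219 on the minus strand and that of Pbx2 is chr17:34592009-34592258 on the plus strand.
Meis2: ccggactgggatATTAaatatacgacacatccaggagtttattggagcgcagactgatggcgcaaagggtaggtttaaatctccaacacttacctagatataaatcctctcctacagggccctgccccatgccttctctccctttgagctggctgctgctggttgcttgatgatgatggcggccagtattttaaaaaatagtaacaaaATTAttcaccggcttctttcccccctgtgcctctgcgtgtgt
Meis1: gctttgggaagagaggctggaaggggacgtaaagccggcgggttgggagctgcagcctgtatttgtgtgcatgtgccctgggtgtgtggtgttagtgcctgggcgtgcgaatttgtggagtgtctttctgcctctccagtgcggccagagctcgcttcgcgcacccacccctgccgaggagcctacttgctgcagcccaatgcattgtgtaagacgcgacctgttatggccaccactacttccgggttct
Pbx2: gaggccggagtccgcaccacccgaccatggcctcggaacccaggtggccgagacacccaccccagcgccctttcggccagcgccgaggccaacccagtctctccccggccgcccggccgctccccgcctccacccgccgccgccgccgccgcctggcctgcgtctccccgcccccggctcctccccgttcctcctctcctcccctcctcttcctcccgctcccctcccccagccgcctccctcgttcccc
The Meis2 window held 2 cores, starting 238 and 42 bases before the start, and those of Meis1 and Pbx2 held none. Of all 32851 such windows, 54.9% held at least 1. None of the 3 windows held the MEIS and TGIF site TGACAG (15.9% of all windows), the PBX composite site TGATNNAT (7.68%), the bicoid-class site TAATCC (6.25%), which contains the core, or the retinoic acid receptor half-site AGGTCA (14%). Among the 5 windows of Tgif1, 1 held TAATCC, starting 70 bases before the start on the opposite strand, and another held TGATNNAT and AGGTCA. GC content was 47.6% for Meis2, 59.6% for Meis1 and 77.6% for Pbx2, against a median of 52.4%. RefSeq windows for Pbx3, Pknox1 and Pknox2 were not used here.

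The arrays and pools bear on every value below. The median spot was dim: 70.6 to 77.5 intensity units in Cy5 where the median background was 58 to 62, and 46.2 to 50.4 in Cy3 where it was 38 to 41. Pools 1 and 2 resembled each other (r = 0.59 over all probes, a description, since the pools share the reference), and pool 3 differed from both (r = -0.21 and -0.19). Results are therefore given with and without pool 3 where a call rests on it. The spots for Pitx3 stayed at background in mutant and reference alike, so they do not check the genotype. Of 13 markers of midbrain dopaminergic neurons, 10 were above background in at least 1 channel on all 6 arrays, while Pitx3 and Lmx1b were so on none. With each pool as 1 replicate, 0 of the 31769 probes (0%) passed limma's moderated test against 0 at an adjusted p under 0.05, and the lowest adjusted p was 0.19. Before adjustment, 1548 probes (4.87%) had a p under 0.05.

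Of the 9 TALE probes, 4 were above background on all 6 arrays in both channels: Meis2, Pbx2, Pbx3 and Pknox1. A spot counted as above background when its mean signal was over the local background mean plus 2 SDs of that background. For the other genes and the wider sets below, above background on all arrays means in at least 1 channel on every array. The Pbx3 probe was the brightest, at 5.13 to 11.8 times its local background. Meis2 stood at 1.67 to 3.39 times and Pbx2 at 1.72 to 2.82 times. Pknox1 reached only 1.27 to 1.47 times. For Meis1, Pknox2 and the 3 Tgif1 probes the signal lay between 1.02 and 1.5 times background over all arrays, and their ratios are given for completeness. These numbers describe each probe's own spot and do not rank the genes by expression.

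**Figure D1:**
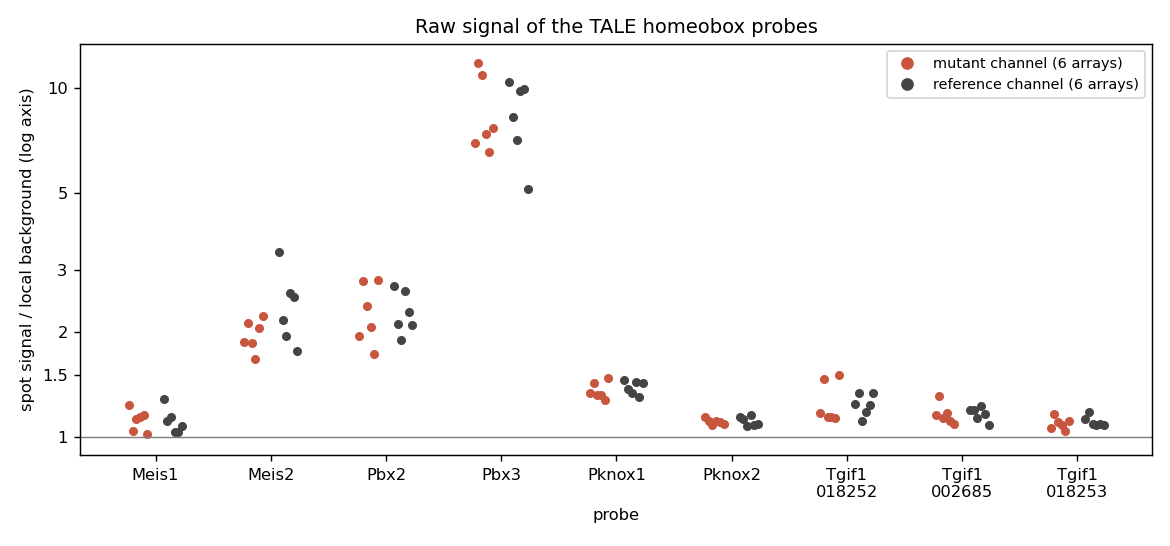
Spot signal over local background (log axis) for each of the 9 TALE probes, with 1 point per array for the mutant and for the reference channel. Tgif1 probes are told apart by the last 6 digits of their names. Only Pbx3, Meis2, Pbx2 and Pknox1 stand clear of 1 on every array, with Pbx3 between 5.13 and 11.8.

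Meis2, which encodes a MEIS partner of PBX, had the mean log2 ratio of largest absolute size among the 9 probes. With the background offset of 50 used here, it also had the largest spread between pools (SD 0.21). With an offset of 0 the dim Meis1 probe spread more (SD 0.45 against 0.41). The log2 ratio of Meis2 was -0.33 in pool 1, -0.28 in pool 2 and 0.06 in pool 3. Both arrays of pools 1 and 2 were thus below the reference and both arrays of pool 3 above it. On single arrays the ratio was -0.37 and -0.29 in pool 1, -0.27 and -0.29 in pool 2, and 0.10 and 0.03 in pool 3, in each case with the mutant in Cy3 first. The 2 dye orientations of a pool differed by at most 0.08, against 0.39 between the highest and lowest pool. The mean over the arrays was -0.18 with the mutant in Cy5 and -0.18 with it in Cy3.

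The raw spots, before normalisation, are given for each dye. In Cy5 the mutant gave 125, 111 and 133 intensity units in pools 1, 2 and 3, and the reference gave 200.2, 149 and 159 on the partner arrays. In Cy3 the mutant gave 72.8, 66.9 and 86.0 units and the reference 87.6, 83.6 and 68.6. In Cy3 the mutant spots of pools 1 and 3 lay within the range of the reference spots. Within 1 dye, mutant and reference spots come from different arrays. In pool 3 the Cy5 mutant spot was below the Cy5 reference spot, though both normalised ratios of that pool were above 0.

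Over the 3 pools the Meis2 ratio was -0.18 ± 0.21 (SD, n = 3), 0.88 times the reference, with a 95% confidence interval of -0.39 to 0.03. This did not pass (limma adjusted p = 0.91). The interval holds 0, and it also holds a level of 0.76 times the reference. Without pool 3 the mean was -0.30 and it passed (limma adjusted p = 0.0029), as did 4.86% of all probes in that fit, which rests on 2 pools chosen after their values were seen. Without pool 1 it was -0.11 and without pool 2 -0.13, and neither passed. The background offset of 50 intensity units shrinks ratios of dim spots. With an offset of 0 the pools stood at -0.60, -0.58 and 0.13 and the mean at -0.35, which did not pass either. With median centring in place of loess the pools stood at -0.44, -0.33 and -2.95e-04, so the sign in pool 3 depended on the scaling. The signs of Meis2 used below are those with loess. In bulk tissue, fewer Meis2-expressing cells and less Meis2 RNA per cell cannot be told apart, and this holds for every gene below.

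Set against the 13882 probes above background in at least 1 channel on all arrays, Meis2 was at the edge in both measures. Of these probes, 59 (0.425%) had an absolute mean ratio at least as large, and 122 (0.879%) had a range between pools at least as large. The median range was 0.066.

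**Figure D2:**
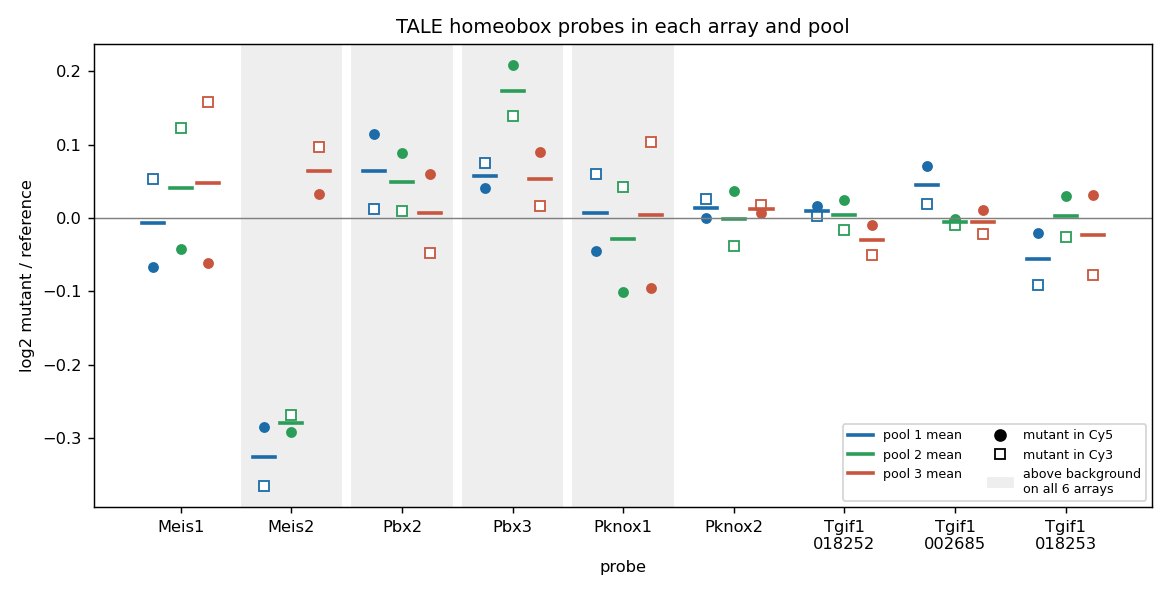
Log2 mutant over reference for the 9 TALE probes, with a point for each array (filled where the mutant was in Cy5, open where it was in Cy3) and a bar for each pool's mean. Shaded probes were above background on all 6 arrays. Meis2 lies near -0.3 in pools 1 and 2 and at 0.06 in pool 3, and Pbx3 is above 0 on all 6 arrays.

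Pbx2 and Pbx3 had mean ratios slightly above the reference, and neither passed. Pbx3, which encodes a PBX factor known in mice for its part in the neural control of breathing, had ratios of 0.06, 0.17 and 0.05 in the 3 pools. All 6 arrays were above 0, with values from 0.02 to 0.21. The mean was 0.09 ± 0.07 (SD, n = 3), 1.07 times the reference, with a 95% confidence interval of 0.02 to 0.17, and it did not pass over all probes (limma adjusted p = 0.91). With 1 pool left out the mean ran from 0.06, without pool 2, to 0.12, without pool 3. It was the only 1 of the 9 probes at an unadjusted p under 0.05, next to 4.87% of all probes. With median centring in place of loess the pools stood at -0.04, 0.08 and 0.01 and the mean was 0.02, so the direction in pool 1 depended on the scaling.

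Pbx2, a PBX gene whose single loss mice tolerate, had 0.06, 0.05 and 0.01 in the 3 pools and a mean of 0.04 ± 0.03 (SD, n = 3). It did not pass (limma adjusted p = 0.91, 95% confidence interval -0.0012 to 0.08). The mean was 0.07 with an offset of 0 and 0.01 with median centring, neither of which passed. Of its 6 arrays 5 were above 0, and the mean was 0.09 with the mutant in Cy5 and -0.0086 with it in Cy3. Pbx2 and Pbx3 were the 2 of 9 probes with the same sign in all 3 pools, next to 25.5% of all 31769 probes. For Pbx2 that agreement depended on the scaling, since pool 3 stood at -4.67e-04 with an offset of 0 and pool 2 at -0.01 with median centring.

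Pknox1, which encodes the PBX partner also called PREP1, was near the reference. Its ratios were 0.0076, -0.03 and 0.0041, with a mean of -0.0056 ± 0.02 (SD, n = 3) and a 95% confidence interval of -0.04 to 0.03 (limma adjusted p = 0.96). The 2 dye orientations disagreed in sign in every pool, with a mean of -0.08 where the mutant was in Cy5 and 0.07 where it was in Cy3. These cancel in the pool means, and the difference within a pool was larger than the spread between pools.

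The other members gave ratios without a clear signal behind them. Meis1, the paralogue of Meis2, had -0.0065, 0.04 and 0.05 in the 3 pools and was above background on 1 array in each channel. Its mean was 0.03 ± 0.03 (SD, n = 3), but -0.06 with the mutant in Cy5 and 0.11 with it in Cy3. Pknox2, the second PREP gene, had 0.01, -0.0012 and 0.01 and was above background on no array. The Tgif1 probes MMAA300018252, MMAA200002685 and MMAA300018253 had means of -0.0054, 0.01 and -0.03, differing in sign among themselves. The first was above background in both channels on 2 arrays, the second in the mutant alone on 1 array and the third on none. With an offset of 0 the means of Meis1 and Pknox2 were 0.20 and 0.09, and those of the Tgif1 probes, in the same order, were -0.04, 0.06 and -0.34. None of these 5 probes passed with either offset (limma adjusted p from 0.91 to 0.97 with the offset of 50).

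By mean ratio the 7 genes ran from Meis2 (-0.18) through Pknox1, Pknox2, Meis1 and Pbx2 to Pbx3 (0.09), with the brightest Tgif1 probe at -0.0054. Their median was 0.0083, against 0.00016 over all 17865 named genes. Neighbours in this order were closer than the SD between pools of the more variable gene of the pair. In several pairs the gap was larger than the SD of the other gene. Meis2 and Pbx3 themselves overlapped in pool 3, at 0.06 and 0.05. In pools 1 and 2 Meis2 was lower than all other members, except that with an offset of 0 the dim Tgif1 probe MMAA300018253 was lower in pool 1, at -0.64.

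The rest of the TALE family was followed in 10 measured genes, of which 8 were above background on all arrays. None passed over all probes in either direction, and their median was 0.0095. At an unadjusted p under 0.05 there was 1, Irx4, at 0.05 ± 0.01 (SD, n = 3), next to 511 higher and 540 lower of all 17865 named genes. Irx3 and Irx5, Iroquois genes of neural patterning, had 0.20, 0.18 and -0.06 and 0.21, 0.15 and -0.09 in the 3 pools. They differed between pools in the direction opposite to Meis2. Signs reverse to those of Meis2 in all 3 pools were held by 5 of the 10 genes, and the signs of Meis2 by 1, Irx1. Over all 17865 named genes these shares were 18.6% and 16.9%, so the reverse signs are not particular to Irx3 and Irx5. Meis3, the remaining MEIS gene, had 0.30, 0.02 and -0.18 and a mean of 0.04 ± 0.24 (SD, n = 3). Pbx4 stood at 0.0032 ± 0.05, Tgif2 at -0.0034 ± 0.07, Mkx at -0.02 ± 0.02 and Irx2 at 0.02 ± 0.03. Irx1 and Irx6 were not well above background on any array, at -0.0085 and -0.0080.

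Partners of TALE proteins and co-repressors of TGIF1 were a list of 20 genes, 19 of them measured and 13 above background on all arrays. None passed, and the median was -0.0045. At an unadjusted p under 0.05, 1 was higher and 2 were lower, next to 511 and 540 of all 17865 named genes. Klf4, a zinc-finger factor, stood at 0.18, 0.25 and 0.18 in the 3 pools. Ctbp1, a co-repressor bound by TGIF1, had 0.13, 0.12 and -0.06. Skil, which encodes the SMAD co-repressor SnoN, had -0.09, -0.08 and -0.0007.

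Genes reported elsewhere as targets or companions of MEIS and PBX in brain numbered 19, of which 18 were measured. None passed, and 4 were lower (Dlx1, Dlx2, Th and Zfp503) and 0 higher at an unadjusted p under 0.05. Of all 17865 named genes, 540 were lower and 511 higher at that level. The median of the list was -0.01. Dlx1 and Dlx2, homeobox genes of GABAergic neurons, had -0.90, -0.94 and 0.05 and -0.46, -0.42 and 0.02 in the 3 pools. Both were below the reference in the pools where Meis2 was, and near it in pool 3. Of the 18 genes, 6 were below 0 in pools 1 and 2 and above 0 in pool 3, Dlx1 and Dlx2 among them. The reverse signs were held by 5. Over all named genes these shares were 16.9% and 18.6%. Th, which encodes tyrosine hydroxylase of the dopamine pathway, had 0.02, -0.22 and -0.23, a different order of pools. Zfp503, a zinc-finger gene of the developing striatum, had -0.04, -0.09 and -0.02. Its dye orientations disagreed, with a mean of -0.38 where the mutant was in Cy5 and 0.28 where it was in Cy3, and 3 of its 6 arrays were above 0.

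The genes whose pool ratios came nearest to those of Meis2 were sought among 11467 named probes above background on all arrays, by the root-mean-square difference of the 3 pool ratios. The nearest was Hnrnpdl, which encodes an RNA-binding protein, at -0.31, -0.23 and 0.05, a difference of 0.029. Next came Syt13, a synaptotagmin gene, at -0.27, -0.25 and 0.04. Ppp3r1, the regulatory subunit of calcineurin, had -0.34, -0.27 and 0.13. Prpf4b, a splicing kinase gene, had -0.38, -0.23 and 0.09, and 0610010F05Rik had -0.37, -0.23 and 0.09. With only 3 pools and the same reference in all, the signs of Meis2 are common. Of 9436 named genes above background, 19.9% were below 0 in pools 1 and 2 and above 0 in pool 3. That share counts ratios of any size and does not say how common a difference this small is. None of the 5 passed (limma adjusted p = 0.91 for each).

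**Figure D3:**
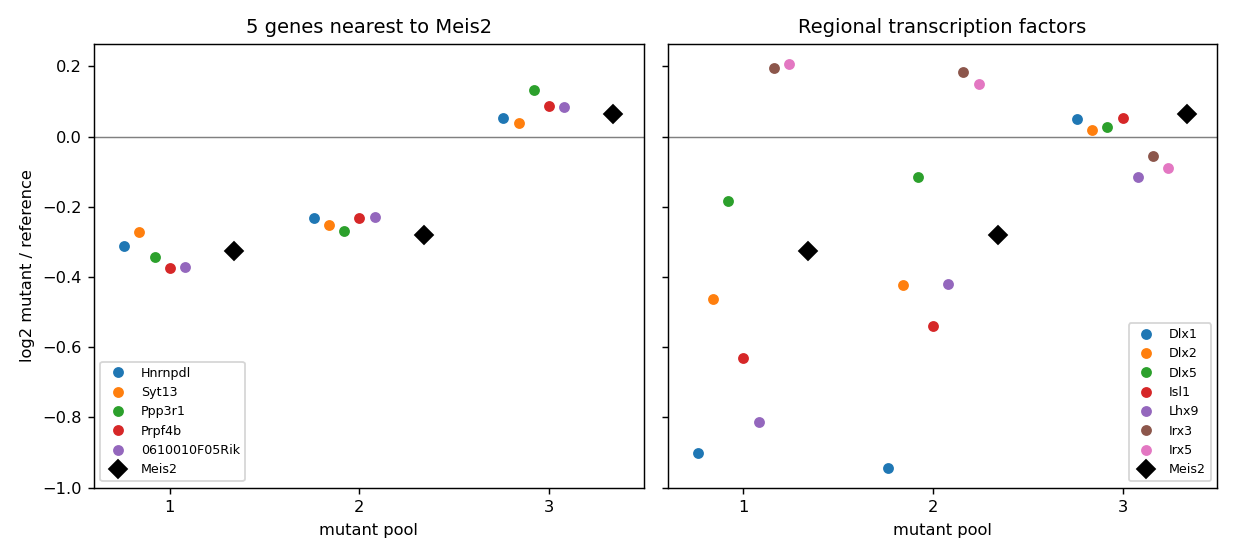
Log2 mutant over reference in each of the 3 mutant pools, on the left for Meis2 (diamonds) and the 5 genes nearest to it, and on the right for Meis2 and 7 regional transcription factor genes, picked for display after their values were seen. Dlx1, Dlx2 and Isl1 lie further below 0 than Meis2 in pools 1 and 2 and near it in pool 3, while Irx3 and Irx5 are above 0 in pools 1 and 2.

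Markers of cells that a ventral midbrain dissection could hold were set beside Meis2. In the list of ventral forebrain and hypothalamic GABAergic neurons, 12 of 13 genes were measured. Of these, 6 were below 0 in pools 1 and 2 and above 0 in pool 3, as Meis2 was: Dlx1, Dlx2, Dlx5, Dlx6, Isl1 and Gad2. Over all named genes the share with these signs was 16.9%. Dlx6 was above background on 1 array in the mutant and 0 in the reference, and Gad2, at -0.02, -0.01 and 0.01, on 0 and 2, so the signs of both came from spots mostly at background. Isl1, a LIM homeobox gene, had -0.63, -0.54 and 0.05, and Dlx5 had -0.18, -0.12 and 0.03. Slc32a1, the vesicular GABA transporter, went the other way, at 0.25, 0.25 and 0.14. Of the 8 list genes above background in at least 1 channel on all arrays, Gad1, Lhx6 and Six3 lacked the signs of Meis2 too. Gad1 had -0.05, 0.09 and 0.12, Lhx6 -0.01, 1.41e-04 and -0.02, and Six3 -0.07, -0.0014 and -0.04. The list's median was -0.04, -0.02 and 0.02 in the 3 pools, and its summed normalised signal ran from 1558 to 1786 in the mutant and from 1683 to 1726 in the reference. Of its genes only Sp8 was above background on no array. Whether these cells had a part in the Meis2 ratio was not tested.

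Other marker lists showed little of that pattern. Among 12 measured genes of hypothalamus and diencephalon 2 had the signs of Meis2 in the 3 pools, with Lhx9 at -0.81, -0.42 and -0.12, Gbx2 at -0.25, -0.08 and 0.07, and Nkx2-2 at 0.13, 0.21 and -0.08. Rax, Six6, Otp and Foxb1, defining genes of hypothalamic territories, were above background on no array, while Nkx2-1, another such gene, was above background in both channels on all 6, at -0.01, -0.06 and -0.03. Sim1 was above background on 2 arrays in the mutant and 5 in the reference, and Pomc on 5 and 6. The summed signal of the list was 1324 to 1372 in the mutant and 1385 to 1453 in the reference. In the dopaminergic list 0 of 13 had those signs. Slc18a2, which loads dopamine into vesicles, was at -0.38, -0.38 and -0.32 and the homeobox genes En1 and En2 were at 0.82, 0.86 and 0.39 and at 0.79, 0.90 and 0.68. Slc18a2, En1 and En2 thus kept their sign in pool 3, where Meis2, with the loess scaling used here, did not.

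The same signs were seen in 1 of 10 midbrain GABAergic genes (Gad2), 1 of 8 red nucleus and oculomotor genes (Isl1) and 1 of 8 hindbrain genes (Hoxb4). Gad2 and Isl1 were also counted in the ventral forebrain and hypothalamic list, so neither is particular to 1 list. Dlx1 and Dlx2 were likewise counted both in that list and among the reported targets of MEIS and PBX. Tal1 and Gata2, factors of midbrain GABAergic neurons, had 0.33, 0.42 and -0.07 and 0.19, 0.31 and -0.04. Nkx6-2 stood at 0.43, 0.42 and 0.01, Slc17a6, the vesicular glutamate transporter, at -0.21, -0.19 and -0.05, and Tph2, of serotonin synthesis, at 0.12, 0.19 and 0.10. The dye orientations differed for Nkx6-2, with a mean of 0.04 where the mutant was in Cy5 and 0.53 where it was in Cy3. For Slc17a6 these means were -0.33 and 0.02. Gata3 had 0.13, 0.25 and -0.02 and Hoxb4 -0.04, -0.06 and 0.03. Of 9 progenitor genes 1 had the signs of Meis2, of 9 neuron genes 2, of 10 meningeal and vessel genes 1 and of 8 microglial and erythroid genes 0. Nes, an intermediate filament of progenitors, had 0.33, 0.26 and -0.09, and the neuronal genes Gap43 and Elavl3 had -0.16, -0.09 and 0.08 and 0.16, 0.12 and -0.13.

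**Figure D4:**
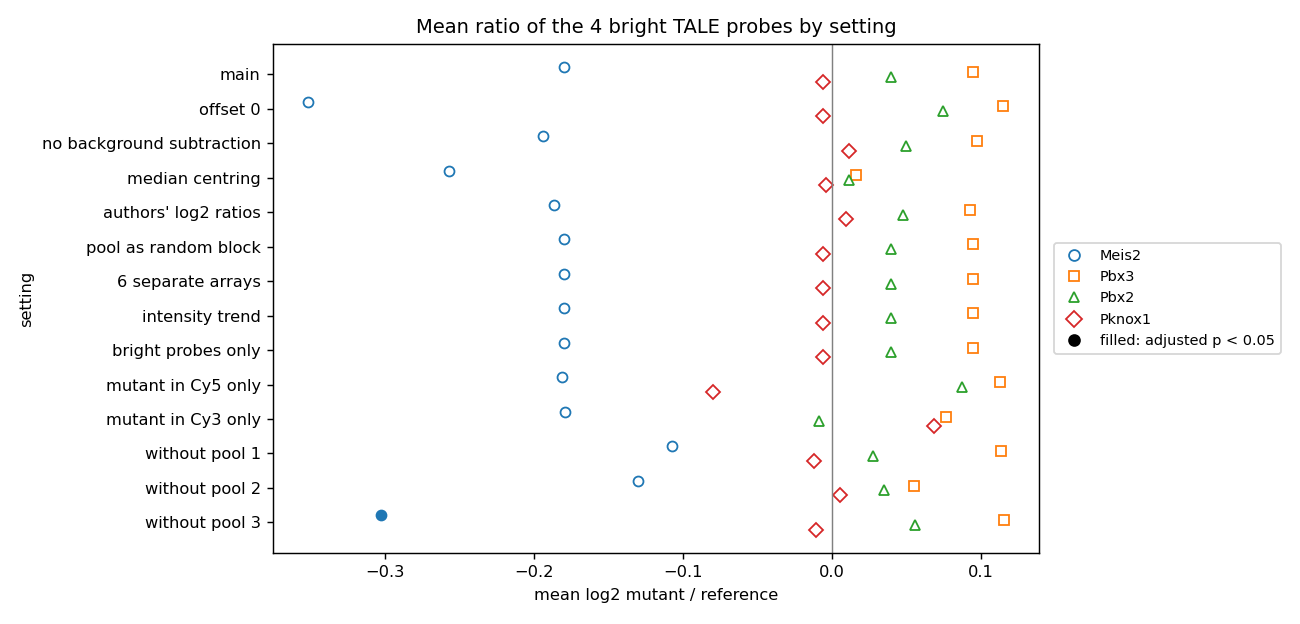
Mean log2 mutant over reference of the 4 TALE probes above background on all arrays, under the main setting and each alternative. Filled symbols have an adjusted p under 0.05, which occurs only for Meis2 without pool 3 (-0.30), and Meis2 stays below 0 in every setting.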

How the data were processed

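Gene expression was measured on 6 two-colour spotted oligonucleotide arrays, 2 with exchanged dyes for each of 3 mutant pools against 1 reference RNA. In the deposited scanner output, spot and local background brightness are given as intensity, read on an Agilent scanner and extracted with ImaGene, per the deposited protocol descriptions. The authors' derived intensity values had print-tip loess with a span of 0.4 and no background subtraction, per the same descriptions. The deposited series matrix holds log2 ratios of mutant over reference (column medians -0.0022 to 0.0020), which differ from those recomputed out of the derived intensity values by at most 4.98e-06. No software version is stated there.

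Here limma 3.58.1 (R 4.3.3) was run on the scanner intensity values: normexp correction of the signal mean by the background median with an offset of 50, then within-array loess (span 0.3, the 3223 control spots at weight 0). The 2 arrays of a pool, both signed as mutant over reference, gave 1 mean, and lmFit with eBayes set the 3 means against 0 for 31769 probes, with Benjamini-Hochberg adjustment and a threshold of 0.05. The test leaves out the control's own spread, and 3 pools limit the precision. With 3 pools an exact sign-flip permutation test cannot go below p = 0.25 (two-sided), so none is given. No label says that pools came from separate litters, so p-values measure only the spread between these pools. Names came from the platform table (1 symbol for 26000 probes, several for 0, none for 5769) and 2865 outdated symbols were updated by the synonyms in RefSeq GRCm38.p6, with 65 left unmatched.

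Lists used each gene's brightest probe. Named were all member probes, the other TALE genes and, from each other list, up to 3 genes above background on all arrays with the largest absolute mean ratio, and the 5 genes nearest to each bright member with a pool ratio of at least 0.2 in size, which Meis2 alone met. Dlx5, Dlx6, Gad1, Gad2, Lhx6, Six3, Zfp503, Nkx2-1, Sim1, Pomc and the genes named as below background were added after their values were seen. So was the sign pattern of Meis2 over the pools. The members and lists were chosen with earlier results of these data known. The averaging and the fit were run on simulated arrays with known changes. Apart from a dye effect these held no noise between the arrays of a pool, and no pool departed from the others. They did not check the signing of ratios as mutant over reference. Promoter windows came from RefSeq and covered 4 of 7 members. The TAAT core was added, and the window shortened to 250 bases, after a first search. Alternatives were another offset, no background subtraction, median centring, the authors' log2 ratios, 3 other models, a filter on dim probes, each dye orientation and each pool left out.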

Additional observations from a re-analysis of the deposited data

How the results depend on the processing

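Of the 9 TALE probes, Meis2 was below 0 and Pbx3 above 0 under all alternatives run. Without 1 pool, Meis2 ran from -0.30 to -0.11, and it passed (limma adjusted p = 0.0029) only without pool 3. Its adjusted p over the other alternatives was at least 0.19. The cause was not tested. The number of probes past the threshold was 0, but 18 with the pool as a random block, 29 with 6 separate arrays, 11 with an intensity trend, 312 with the mutant in Cy5 only, 430 with the mutant in Cy3 only, and 0 to 1543 with 1 pool left out. Neither single orientation removes the dye bias.

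Signs turned as follows, with values close to 0 in most cases, and the cause was not tested. With no background subtraction, Pknox1 stood at 0.0115, Pknox2 at -8.04e-04 and Tgif1 probe MMAA300018253 at 0.0011. With median centring, Tgif1 probes MMAA300018252 and MMAA300018253 stood at 0.0452 and 0.00375. With the authors' log2 ratios, Meis1 stood at -0.0018, Pknox1 at 0.0098 and Tgif1 probe MMAA300018252 at 0.0094. With the mutant in Cy5 only, Meis1 stood at -0.0567 and Tgif1 probes MMAA300018252 and MMAA300018253 at 0.0103 and 0.0135. With the mutant in Cy3 only, Pknox1 stood at 0.0686, Pbx2 at -0.0086 and Tgif1 probe MMAA200002685 at -0.0039. With 1 pool left out, Pknox1 ran from -0.0122 to 0.0059, Tgif1 probe MMAA300018252 from -0.0129 to 0.0068 and Tgif1 probe MMAA200002685 from -0.0051 to 0.0201. The filter on dim probes left Meis1, Pknox2 and Tgif1 without a value.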

Other observations

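In limma's fit to 6 separate arrays, the term for the mutant's dye passed over all probes for Pknox1 (-0.07, adjusted p = 0.013), Meis1 (-0.08, adjusted p = 0.013) and Pbx2 (0.05, adjusted p = 0.048). The same term passed for 5204 of all 31769 probes, so it is not particular to these members. For Meis2 that term was -0.0009 and did not pass (limma adjusted p = 0.99).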
